A study of Mus musculus with 6 samples.

Results

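The 6 genes described here, Ms4a4b, Ms4a4c, Ms4a6b, Ms4a6c, Ms4a6d and Ms4a7, belong to the membrane-spanning 4A (Ms4a) family of mouse chromosome 19. They were picked by gene name from the 15898 genes of the deposited count table, with the difference between the treatment groups already known. The group differences below are therefore given as descriptions. RNA came from CD8+ T cells sorted from B16F10 melanomas by PD-1 together with TIM-3, which the labels call terminally exhausted. The cells were Thy1.1+ PMEL cells, whose transgenic receptor sees a melanoma antigen. The labels give the strain C57BL/6 and a B6.Cg genotype with Thy1a/Cy and the transgene Tg(TcraTcrb)8Rest/J for every library. All mice had been irradiated with 4 Gy, had received naive Thy1.1+ PMEL cells before the tumour and activated Thy1.2+ PMEL CD8+ T cells on day 10. From that day they were given 4 injections beside the tumour, of IL-10/Fc (20 µg each, a fusion of interleukin-10 to an antibody Fc part) in 4 libraries or of phosphate-buffered saline (PBS) in 2 libraries. On day 18, 500 cells per library were sorted, to a stated purity above 99%, for Smart-Seq2, a full-length method that does not mark strand. Age, sex and the number of mice behind a library are not given in the sources used here.

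MS4A proteins are small proteins that cross the membrane several times and sit beside other receptors, whose signalling they tune. The family is best known for CD20 (Ms4a1) on B cells and for the beta chain of the IgE receptor (Ms4a2) on mast cells. In mouse T cells Ms4a4b is an abundant member whose protein associates with the costimulatory receptor GITR, while Ms4a7 is known as a gene of macrophages. RefSeq lists 21 Ms4a genes on GRCm38, of which 10 were in the deposited table: the 6 members, Ms4a4a, Ms4a4d, Ms4a8a and Ms4a20, the last under its older name 1700017D01Rik. Ms4a1 and Ms4a2 were not among the listed genes and are not analysed here.

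The libraries held 26738871 to 36941814 counts over the listed genes. The T cell and exhaustion labels were checked against markers: Cd3e, Cd8a, Cd8b1, Thy1, Pdcd1 and Havcr2, the genes of the sorted surface proteins and of CD3, were all detected, with Cd8a at 2896 to 3160 CPM in IL-10/Fc and 910 and 2291 CPM in PBS. CPM are counts scaled to a common library size, here with TMM factors of 0.950 to 0.983 in IL-10/Fc and 1.06 and 1.10 in PBS. The 11 listed T cell genes summed to 15243 to 17386 CPM in IL-10/Fc and to 7371 and 11466 CPM in PBS, so the groups did not overlap. PBS replicate 1 held the lowest T cell sum of all libraries. In bulk libraries, fewer cells of a type and less RNA per cell cannot be told apart.

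The members lie within one stretch of chromosome 19, given here in GRCm38. Ms4a7 (ENSMUSG00000024672, chr19:11321039-11336146, minus strand) lies first. Ms4a4c (ENSMUSG00000024675, chr19:11404770-11427246), Ms4a4b (ENSMUSG00000056290, chr19:11443553-11463549), Ms4a6c (ENSMUSG00000079419, chr19:11469366-11482192) and Ms4a6b (ENSMUSG00000024677, chr19:11516512-11531256) follow on the plus strand. Ms4a6d (ENSMUSG00000024679, chr19:11586604-11604849) is on the minus strand. All are protein coding, with 7 exons in the transcript of longest coding region, or 8 in Ms4a6b (GENCODE M21). By sequence the members fall into 2 close sets and Ms4a7 alone. The coding regions of Ms4a4b and Ms4a4c were identical at 91.7% of aligned bases, and those of Ms4a6b and Ms4a6c at 85.4%. Ms4a6d matched Ms4a6b at 81.2% and Ms4a6c at 79.0%. Between the Ms4a4 and Ms4a6 members identity was 59.6% to 61.3%, and Ms4a7 matched the other 5 members at 63.5% to 66.0%.

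**Figure D1:**
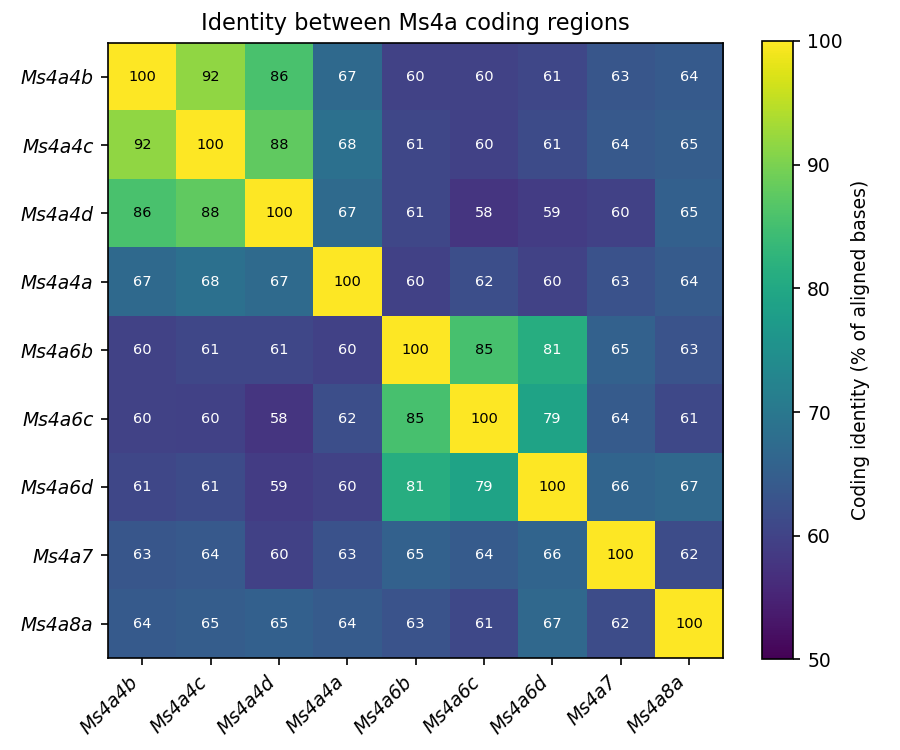
Identity between the coding regions of 9 Ms4a genes, in percent of aligned bases (rows and columns are genes, colour and digits the identity). Ms4a4b, Ms4a4c and the non-member Ms4a4d form one block at 85.6% or more, Ms4a6b, Ms4a6c and Ms4a6d a second at 79% or more, and Ms4a7 stands outside both.

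Near copies can share reads. Of the 50-base words in each gene's coding transcripts, 4.19% in Ms4a4b, 8.19% in Ms4a4c, 5.89% in Ms4a6b, 11.3% in Ms4a6c and 2.69% in Ms4a6d also occurred in a transcript of another gene, and none of those in Ms4a7. Not all of these words lie in the family: of the shared words in Ms4a6c, 109 of 203 were in the other Ms4a genes compared here. In Ms4a4b 134 of 197 were in those genes, and its other partner was Ms4a2, which also belongs to the family. Reads on such words cannot be placed with certainty, which leaves the counts of these 5 genes uncertain in part. Ms4a6c also shares 1088 exonic bases with BE692007, a transcript on the opposite strand, and Smart-Seq2 does not mark strand. Part of the Ms4a6c counts may therefore belong to BE692007, which had 24.9 to 41.7 CPM in IL-10/Fc and 9.03 and 27.5 CPM in PBS.

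The likeness within the pairs reaches into the DNA before the start sites. Both pairs are shown because they are near copies whose members all lay higher in IL-10/Fc. Each line is the 250 bases before a RefSeq start site, read 5′ to 3′ on the gene's strand (RefSeq, GRCm38.p6), and capitals mark the longest run that the pair has in common. The Ms4a4c and Ms4a6b windows lie inside the gene spans given above, which begin at 11404770 and 11516512. Their start sites are therefore not the first bases of those spans. The first pair is chr19:11443308-11443557 for Ms4a4b and chr19:11407411-11407660 for Ms4a4c, with a common run of 20 bases.
Ms4a4b: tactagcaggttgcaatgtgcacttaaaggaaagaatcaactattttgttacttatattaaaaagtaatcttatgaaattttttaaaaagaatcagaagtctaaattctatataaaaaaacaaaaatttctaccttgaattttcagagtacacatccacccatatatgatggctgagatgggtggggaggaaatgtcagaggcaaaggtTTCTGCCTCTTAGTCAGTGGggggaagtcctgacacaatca
Ms4a4c: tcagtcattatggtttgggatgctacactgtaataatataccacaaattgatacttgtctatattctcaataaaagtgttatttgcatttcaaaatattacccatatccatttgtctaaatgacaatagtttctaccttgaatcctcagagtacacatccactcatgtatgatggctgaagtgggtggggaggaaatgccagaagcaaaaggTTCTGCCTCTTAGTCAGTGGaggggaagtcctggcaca
The next are chr19:11518309-11518558 for Ms4a6b and chr19:11469118-11469367 for Ms4a6c, all on the plus strand, with a common run of 48 bases. That run lies at -118 to -71 of the Ms4a6b start site and at -49 to -2 of the Ms4a6c start site.
Ms4a6b: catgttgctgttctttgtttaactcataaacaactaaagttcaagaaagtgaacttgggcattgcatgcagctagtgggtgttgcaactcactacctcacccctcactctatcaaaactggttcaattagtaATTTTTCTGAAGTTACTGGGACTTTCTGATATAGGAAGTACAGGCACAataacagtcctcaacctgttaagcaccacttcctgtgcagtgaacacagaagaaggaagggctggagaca
Ms4a6c: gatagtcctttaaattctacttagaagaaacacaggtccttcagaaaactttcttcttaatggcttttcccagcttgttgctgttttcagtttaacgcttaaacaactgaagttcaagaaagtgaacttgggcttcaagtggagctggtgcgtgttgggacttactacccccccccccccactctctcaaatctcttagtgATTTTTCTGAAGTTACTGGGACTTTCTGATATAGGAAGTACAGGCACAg
Over the RefSeq window of 250 bases before to 50 after the start, identity was 80.9% of aligned bases in the first pair and 85.3% in the second. Ms4a7, shown as the macrophage gene of the set, shared no run of more than 9 bases with any of these 4 windows. Its stretch is chr19:11336147-11336396 on the minus strand, with matches to a T-box site and to a spaced STAT palindrome in capitals.
Ms4a7: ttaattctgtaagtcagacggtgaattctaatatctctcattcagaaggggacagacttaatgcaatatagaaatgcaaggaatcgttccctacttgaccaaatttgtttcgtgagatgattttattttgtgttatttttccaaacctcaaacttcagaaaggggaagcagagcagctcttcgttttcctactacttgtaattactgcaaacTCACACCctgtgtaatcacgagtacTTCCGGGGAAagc
The letters searched on both strands of these windows were TTCNNNGAA (STAT palindrome), TGTGGT (RUNX), GGTGTGA (T-box) and GAGGAAGT (PU.1), with a spaced STAT palindrome (TTC and GAA around 4 free bases) and the interferon response element core (GAAA, 2 free bases, GAAA). None of the matches found overlapped another. RefSeq gave 6 windows for 5 members, 2 of them for Ms4a7. Matches in Ms4a7 lie in the window shown above, and its other window had none. The spaced STAT palindrome was in that shown window, at -13, and in the window of Ms4a6b, at 9 bases into the transcript. It is in 6.95% of all 32851 promoter windows. GGTGTGA was in Ms4a7 alone (3.98% of all windows) and TGTGGT in Ms4a4c alone (16.8% of all). TTCNNNGAA, the interferon element core and GAGGAAGT were in none of the 6, against 8.3%, 3.44% and 3.2% of all windows. A match is a match of letters and not a measured site.

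All 6 members had a higher CPM in every IL-10/Fc library than in either PBS library. Ms4a4b, the GITR-associated member, stood at 9702, 8370, 7420 and 8623 CPM in IL-10/Fc replicates 1 to 4 and at 4556 and 5177 CPM in PBS replicates 1 and 2. The lowest IL-10/Fc library was 1.43 times the higher PBS library. The mean was 8529 ± 938 CPM for IL-10/Fc (SD, n = 4) and 4867 ± 439 CPM for PBS (SD, n = 2), a log2 fold change of 0.81 (SE 0.13).

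Ms4a6b, which is also transcribed in T cells, stood at 2766, 2055, 1953 and 2343 CPM in IL-10/Fc and at 982 and 988 CPM in PBS. The PBS libraries were nearly equal, and every IL-10/Fc library was at least 1.98 times the higher of them. Its log2 fold change was 1.21 (SE 0.16). Within libraries, Ms4a6b also stood higher relative to Ms4a4b in IL-10/Fc. There were 28.5, 24.6, 26.3 and 27.2 counts of Ms4a6b per 100 of Ms4a4b in IL-10/Fc and 21.5 and 19.1 in PBS. This ratio is free of any scaling factor and its groups did not overlap.

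Ms4a4c, the near copy of Ms4a4b, stood at 2241, 1391, 1262 and 1518 CPM in IL-10/Fc and at 655 and 885 CPM in PBS. IL-10/Fc replicate 1 was the highest library for Ms4a4b, Ms4a6b and Ms4a4c alike. The log2 fold change of Ms4a4c was 1.06 (SE 0.27). Set against Ms4a4b, the groups overlapped, with 23.1, 16.6, 17.01 and 17.6 counts of Ms4a4c per 100 of Ms4a4b in IL-10/Fc and 14.4 and 17.1 in PBS.

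The less abundant Ms4a6 members followed the same direction. Ms4a6c stood at 113, 95.2, 108 and 119 CPM in IL-10/Fc and at 45.5 and 64.2 CPM in PBS, a log2 fold change of 0.99 (SE 0.18). Ms4a6d, known from macrophages, stood at 137, 154, 222 and 170 CPM in IL-10/Fc and at 55.9 and 96.6 CPM in PBS, a log2 fold change of 1.16 (SE 0.29). Its highest library was IL-10/Fc replicate 3, the lowest of the 4 for Ms4a4b, Ms4a4c and Ms4a6b. Per 100 counts of Ms4a6b the groups overlapped for both genes, with 4.10 to 5.51 of Ms4a6c in IL-10/Fc against 4.63 and 6.49 in PBS, and 4.96 to 11.4 of Ms4a6d in IL-10/Fc against 5.70 and 9.77 in PBS.

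Ms4a7, the macrophage gene, was the least abundant member and had the steepest difference. It stood at 8.04, 8.61, 13.8 and 28.6 CPM in IL-10/Fc and at 0.51 and 2.58 CPM in PBS. These levels rest on 240, 247, 383 and 1004 counts in IL-10/Fc and on 15 and 79 counts in PBS. IL-10/Fc replicate 4 was well above the other 3, and PBS replicate 2 well above PBS replicate 1. The mean was 14.8 ± 9.59 CPM for IL-10/Fc (SD, n = 4) and 1.55 ± 1.46 CPM for PBS (SD, n = 2), and the log2 fold change was 3.25 (SE 0.91). That value was 4.85 without PBS replicate 2 and 2.51 without PBS replicate 1.

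**Figure D2:**
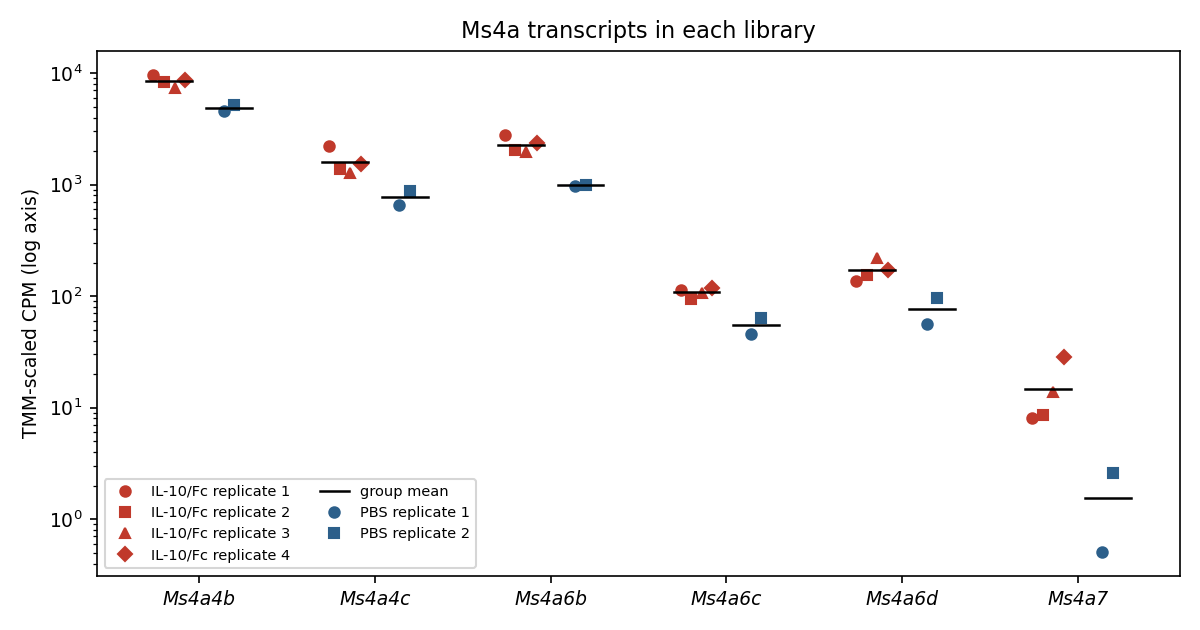
TMM-scaled CPM of the 6 members on a log axis, with 1 point per library (4 IL-10/Fc, 2 PBS; symbols mark the replicate) and lines at the group means. For each gene every IL-10/Fc point lies above both PBS points, and the gap is widest and the points most scattered for Ms4a7.

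Together the members took 1.08% to 1.43% of all counts in IL-10/Fc and 0.693% and 0.767% in PBS. Per kilobase of annotated exon, Ms4a4b was the highest member at a mean of 1796 CPM per kb in IL-10/Fc and 1025 in PBS. Ms4a4c (916 in IL-10/Fc and 440 in PBS) and Ms4a6b (850 in IL-10/Fc and 368 in PBS) came next. Their libraries overlapped in IL-10/Fc, while in PBS Ms4a4c (374 and 506) lay above Ms4a6b (366 and 369), by little in PBS replicate 1. Ms4a6d (111 in IL-10/Fc and 49.6 in PBS) stood above Ms4a6c (59.1 in IL-10/Fc and 29.8 in PBS) in every library, and Ms4a7 was last (8.53 in IL-10/Fc and 0.892 in PBS). GENCODE M21 ends Ms4a4b at base 11467055, beyond the end in the deposited file, so its level per kb may be understated.

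Counts of calls depended on the test. Under edgeR's quasi-likelihood fit (Benjamini-Hochberg over 15477 genes), none of the 6 members passed 0.05 (adjusted p from 0.148 for Ms4a4b and Ms4a6b to 0.268 for Ms4a7), and 0.00646% of all genes passed as higher. All 6 had an unadjusted p under 0.05 in that test, as did 7.2% of all genes on the higher side and 5.52% on the lower. The authors' deposited table lists all 6 as higher, beside 3.57% of its genes (1.72% were lower), and Ms4a6b had the smallest adjusted p of them (2.11e-08). DESeq2 fitted to the counts also called all 6 higher (3.46% of genes). Libraries did not overlap for any of the 6, as for 12.1% of genes on the higher side. Their median log2 fold change was 1.11, against -0.01 over all genes tested. Nothing is read from these counts, since the choice of the 6 used the same contrast, and p-values measure only the spread between these samples, which may be technical.

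**Figure D3:**
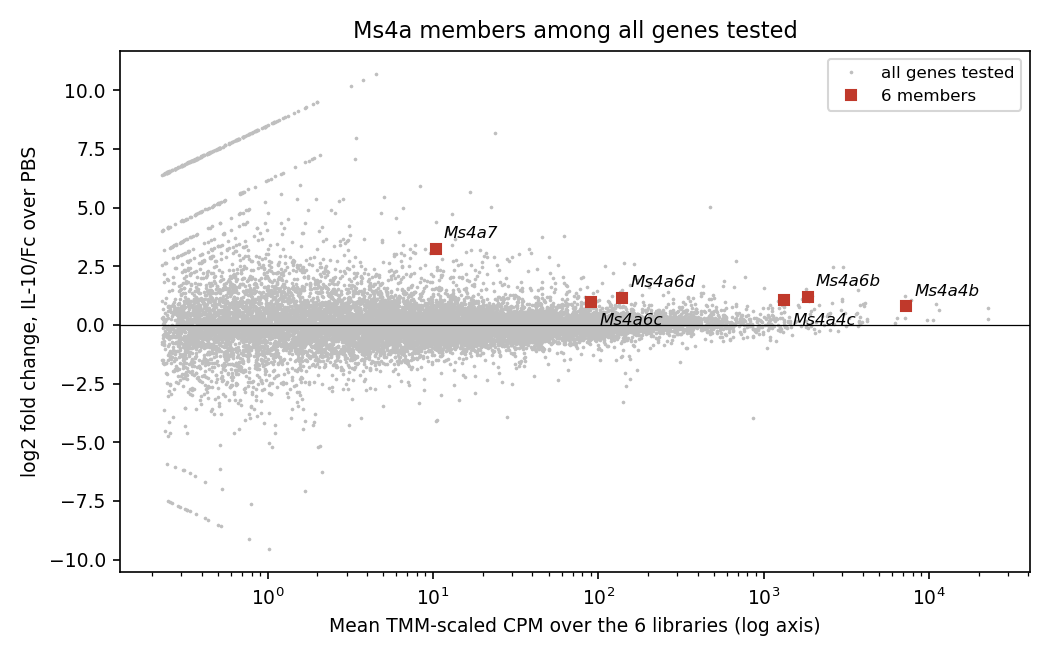
Log2 fold change of IL-10/Fc over PBS (edgeR) against the mean TMM-scaled CPM over the 6 libraries (log axis) for all genes tested (grey) and the 6 members (red). Ms4a4b, Ms4a6b and Ms4a4c lie among the most abundant genes at 0.81 to 1.21, and Ms4a7 at 3.25 lies where the grey cloud is wider.

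The T cell members were set against Ms4a7 within each library. There were 0.0645, 0.0826, 0.147 and 0.261 counts of Ms4a7 per 100 counts of Ms4a4b and Ms4a6b in IL-10/Fc replicates 1 to 4, and 0.0092 and 0.0419 in PBS replicates 1 and 2. The groups did not overlap in this ratio either, which no scaling can move. As a share of the counts on the 3 genes, the lowest IL-10/Fc library had 0.0645% (exact 95% interval 0.0566% to 0.0731%) and the higher PBS library 0.0418% (0.0331% to 0.0521%). These intervals cover counting error only. The means were 0.139 ± 0.0888 (SD, n = 4) per 100 in IL-10/Fc and 0.0255 ± 0.0231 (SD, n = 2) in PBS, 5.44-fold higher in IL-10/Fc. The ratio of the means was 15.1 without PBS replicate 2 and 3.32 without PBS replicate 1.

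Markers of macrophages and monocytes were read beside Ms4a7. Of 24 measured markers of 25 listed, 20 of the 23 tested had a positive log2 fold change (median 1.60). None of the markers passed edgeR's test and 7 passed as higher in the authors' deposited table, as did 3.57% of all its genes. The summed level of the markers was 1000 to 2514 CPM in IL-10/Fc and 1025 and 1114 CPM in PBS. All 8 defining markers were detected in every library, none of them at 0, and none was called in either direction. They summed to 64.6, 271, 400 and 474 CPM in IL-10/Fc replicates 1 to 4 and to 111 and 358 CPM in PBS, so the groups overlapped. Lyz2, a lysozyme gene, supplied most of the sum in PBS replicate 2. The complement genes C1qa, C1qb and C1qc summed to 22.1, 65.7, 146 and 204 CPM in IL-10/Fc, the same order of these libraries as Ms4a7. In PBS the C1q genes summed to 35.4 and 27.5 CPM, the reverse of the order for Ms4a7.

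The markers did not move as one. For 7 of the 24, Cd68, Fcgr4, Mrc1, Itgam, Sirpa, Aif1 and Fcer1g, every IL-10/Fc library lay above both PBS libraries. The same held for Ms4a7 and for 12.1% of all genes tested. For the other 17 markers the groups overlapped. Fcer1g, a signalling chain of Fc receptors, stood at 84.6, 155, 375 and 296 CPM in IL-10/Fc and at 34.4 and 40.7 CPM in PBS. IL-10/Fc replicate 1 had the lowest C1q sum and the lowest sum of defining markers of the 6 libraries, and 8.04 CPM of Ms4a7 against 0.51 and 2.58 CPM in PBS. In that library 8 of the 24 markers lay above both PBS libraries and 10 below both, while 18 or 19 lay above both in each of the other 3 IL-10/Fc libraries. It also had the most Ms4a4b, Ms4a4c and Ms4a6b of all libraries. The part of macrophage RNA in the Ms4a7 level was not tested. Per 100 CPM of C1q, Ms4a7 stood at 36.3, 13.1, 9.42 and 14.03 CPM in IL-10/Fc and at 1.44 and 9.37 CPM in PBS. The lowest IL-10/Fc value and the higher PBS value were close to equal. Against the summed defining markers the groups did not overlap. Ms4a7 stood there at 12.5, 3.18, 3.45 and 6.04 CPM per 100 in IL-10/Fc and at 0.459 and 0.721 in PBS.

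**Figure D4:**
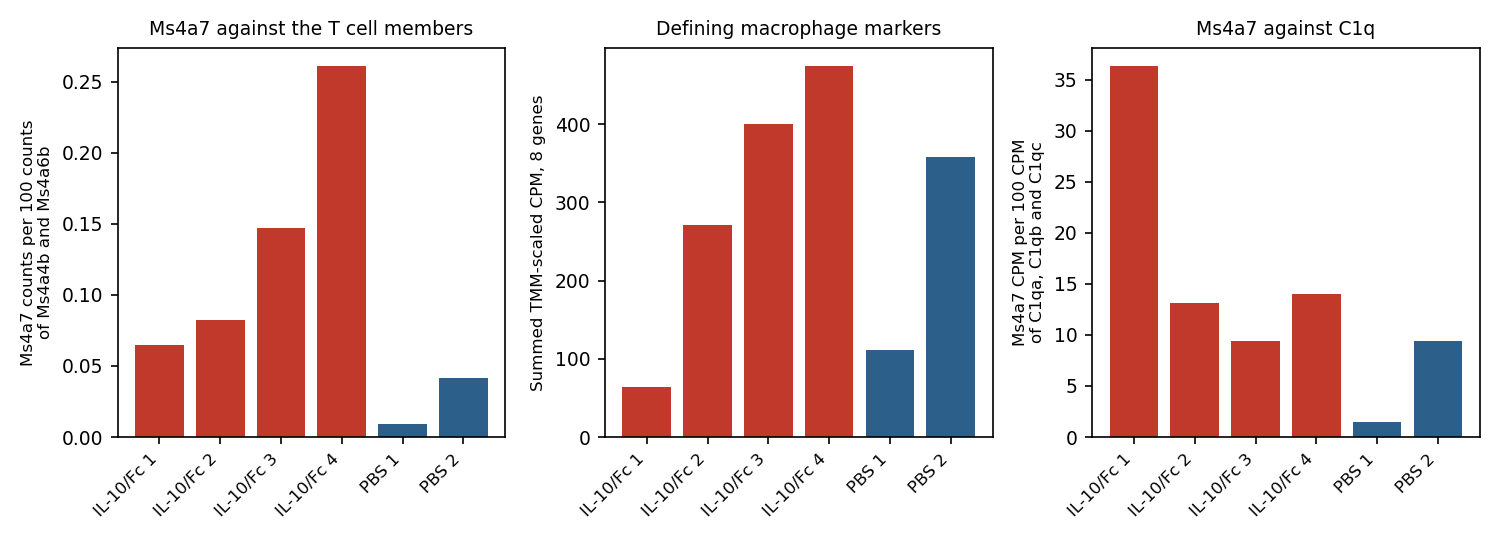
Bars give 1 value per library (4 IL-10/Fc in red, 2 PBS in blue): Ms4a7 counts per 100 counts of Ms4a4b and Ms4a6b (left), summed TMM-scaled CPM of 8 defining macrophage markers (middle) and Ms4a7 per 100 CPM of C1q genes (right). All 4 IL-10/Fc bars exceed both PBS bars on the left, while in the middle panel IL-10/Fc replicate 1 (64.6 CPM) is below both PBS libraries.

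The T cell members were also set beside the T cell list, whose sum was higher in every IL-10/Fc library. Ms4a4b stood at 56.3, 48.1, 48.7 and 52.0 CPM per 100 CPM of the 11 T cell genes in IL-10/Fc and at 61.8 and 45.2 in PBS. Ms4a6b stood at 16.0, 11.8, 12.8 and 14.1 in IL-10/Fc and at 13.3 and 8.62 in PBS. Relative to these genes both members overlapped between the groups, in contrast to their CPM. PBS replicate 1 had the highest Ms4a4b of all libraries on this measure. Of the 11 genes, 9 had a positive log2 fold change and none passed edgeR's test. In the authors' deposited table, where 3.57% of all genes passed as higher, 5 of the 11 did.

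Of the family genes outside the 6, none was called. Ms4a4a, a gene known from macrophages, lies between Ms4a7 and Ms4a4c, and its groups overlapped. It stood at 81.6, 75.0, 136 and 84.2 CPM in IL-10/Fc and at 87.0 and 135 CPM in PBS (log2 fold change -0.23, SE 0.30), which turned to 0.12 without PBS replicate 2. Per 100 counts of Ms4a4c there were 3.64, 5.39, 10.8 and 5.54 of Ms4a4a in IL-10/Fc and 13.3 and 15.2 in PBS, with no overlap. Ms4a4c was itself higher in every IL-10/Fc library, so this ratio gives no separate result on Ms4a4a. Ms4a4d stood at 3.59 to 10.4 CPM in IL-10/Fc and at 3.77 and 2.97 CPM in PBS, with overlap. Ms4a8a ranged from 0.54 to 5.73 CPM in IL-10/Fc and lay at 5.98 and 0.33 CPM in PBS, and 1700017D01Rik did not exceed 1.68 CPM in any library. The CD20-like genes Tmem176a and Tmem176b of chromosome 6 overlapped between the groups, at 1.81 to 22.4 CPM and 1.14 to 30.7 CPM in IL-10/Fc, and at 0.61 and 6.21 CPM and 3.53 and 9.54 CPM in PBS.

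Among 18 other genes of the table within 250 kb of the Ms4a genes, 1700017D01Rik included, 11 had a positive log2 fold change, with a median of 0.33 against 0.01 over the 479 genes tested on chromosome 19. Libraries of the groups did not overlap for 5 of the 18 on the higher side and for 3 on the lower side, where the share over all genes was 12.1% and 11.5%. The authors' deposited table called 3 of them higher and none lower. One of these, AW112010 (chr19:11047617-11050566), stood at 9768, 9062, 8496 and 10304 CPM in IL-10/Fc and at 3209 and 5743 CPM in PBS, above every member in each IL-10/Fc library. Gm19261 overlaps the start of Ms4a6b on the other strand, with 19 exonic bases in common, and had 2.05 to 8.08 CPM in IL-10/Fc and 0.71 and 0.16 CPM in PBS. Gm10212 is the third, and some of its 50-base words also occur in Ms4a6b. These were named after their values were seen.

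**Figure D5:**
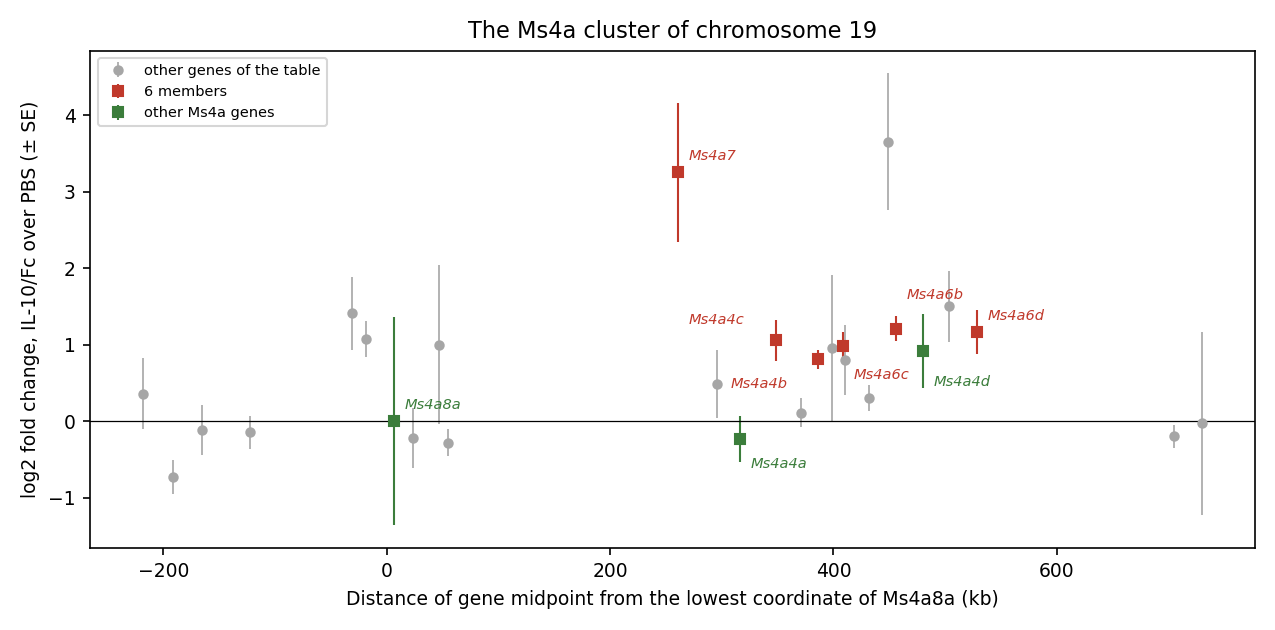
Log2 fold change of IL-10/Fc over PBS (edgeR, bars ± SE) against distance along chromosome 19 for the 6 members (red), the other Ms4a genes (green) and other genes of the table (grey). The 5 Ms4a4 and Ms4a6 members lie at 0.81 to 1.21 over one stretch, Ms4a4a beside them lies at -0.23, and Ms4a8a at the far end has an SE of 1.36.

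Tnfrsf18, which encodes GITR, the partner of MS4A4B, stood lower in every IL-10/Fc library than in PBS. It stood at 543, 522, 554 and 518 CPM in IL-10/Fc and at 823 and 596 CPM in PBS. The groups did not overlap, as for 11.5% of genes on the lower side, and its log2 fold change of -0.41 (SE 0.13) did not pass edgeR's test (adjusted p = 0.314) or the authors' deposited table (adjusted p = 0.137). Interferon response genes had a positive log2 fold change in 27 of 30 (median 0.76), and summed to 1446, 1981, 1265 and 1831 CPM in IL-10/Fc and to 699 and 903 CPM in PBS. None of them passed edgeR's test and 7 passed as higher in the authors' deposited table, as did 3.57% of all its genes.

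The genes whose pattern over the 6 libraries was most like Ms4a4b, Ms4a6b or Ms4a7 were taken from 7565 named coding genes of at least 5 CPM. The measure was the root mean square difference between centred log2(CPM + 1) values. For Ms4a4b these were Lime1, an adaptor of T cell signalling, at 0.08, then Krtcap2, Crip1, Tmbim6 and Pik3cd, the last a PI3K catalytic subunit of lymphocytes. Lime1 stood at 787, 754, 648 and 809 CPM in IL-10/Fc and at 433 and 449 CPM in PBS. For Ms4a6b they were Magohb, Snx18, Pim1, Sema4d and Bcl11b at 0.14 to 0.16, Bcl11b being a transcription factor of the T cell lineage. Ms4a4c lay at 0.18 from Ms4a6b and at 0.20 from Ms4a4b.

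For Ms4a7 the nearest genes were Ifitm3, Pirb, Slamf8, Gngt2 and Aif1, at 0.39 to 0.44. Pirb, an inhibitory receptor of myeloid and B cells, stood at 4.02, 7.88, 11.9 and 21.1 CPM in IL-10/Fc and at 0.95 and 1.14 CPM in PBS. Aif1, the macrophage protein IBA1, is also on the macrophage list and stood at 11.5, 16.5, 45.5 and 45.2 CPM in IL-10/Fc and at 3.19 and 4.67 CPM in PBS. The other members were farther from Ms4a7, from 0.84 for Ms4a6d to 1.08 for Ms4a4b. Because these distances are over 6 libraries that share a group difference, they describe the libraries and carry no test.

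Markers of other cell types were summed in the same libraries. The 9 measured genes of the dendritic cell and MHC class II list summed to 172, 651, 1916 and 1013 CPM in IL-10/Fc and to 228 and 320 CPM in PBS. IL-10/Fc replicate 3, highest in this sum, was also highest for Ms4a6d. H2-Ab1 of this list stood at 27.4, 269, 899 and 498 CPM in IL-10/Fc and at 81.4 and 115 CPM in PBS. The 3 measured defining dendritic cell genes had a lower mean in IL-10/Fc than in PBS. Zbtb46 stood at 4.76 to 21.7 CPM in IL-10/Fc and at 61.0 and 23.3 CPM in PBS. Xcr1 (19.1 to 33.2 CPM in IL-10/Fc, 20.7 and 33.8 in PBS) and Cd209a (0 to 0.03 in IL-10/Fc, 0 and 9.70 in PBS) overlapped. Of B cell markers 2 of 9 were listed and none of the 4 defining ones, and their sum was 2.24 to 7.18 CPM in IL-10/Fc and 0.408 and 1.37 CPM in PBS. Mast cell and basophil markers summed to 3.35 to 5.44 CPM in IL-10/Fc and 8.93 and 9.05 CPM in PBS, and melanoma markers to 4.76 to 9.04 CPM in IL-10/Fc and 0.645 and 6.34 CPM in PBS. NK markers summed to 260 to 321 CPM in IL-10/Fc and 144 and 285 CPM in PBS, and CD4 and regulatory T cell markers to 1047 to 1221 CPM in IL-10/Fc and 1411 and 1050 CPM in PBS. Of the defining genes of the NK list and of the CD4 and regulatory T cell list, only Klrb1c (NK) and Zbtb7b (CD4) were measured. Klrb1c stood at 0.03 to 0.72 CPM in IL-10/Fc and at 10.1 and 0.07 CPM in PBS. Zbtb7b stood at 0 to 0.97 CPM in IL-10/Fc and at 0.95 and 0.46 CPM in PBS. Klre1 supplied most of each NK sum, and Tnfrsf18 with Ctla4 most of each CD4 and regulatory T cell sum. Neutrophil markers summed to 4.05 to 6.87 CPM in IL-10/Fc and 2.45 and 3.27 CPM in PBS. Fibroblast and endothelial markers summed to 6.59 to 9.87 CPM in IL-10/Fc and 20.4 and 16.6 CPM in PBS. Of that list 2 of 8 genes were measured, and Pecam1 supplied most of each sum. Pecam1 was lower in the authors' deposited table (adjusted p = 0.0027), as were 1.72% of its genes. The 8 exhaustion genes summed to 1962 to 2566 CPM in IL-10/Fc and 2356 and 2825 CPM in PBS. The part of these cell types in the members' levels was not tested.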

How the data were processed

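RNA of 6 libraries (4 IL-10/Fc, 2 PBS) was measured. The authors deposited whole-number counts per gene, and their own log2 fold change with an adjusted p-value per gene. Per the submitters' processing notes, Trimmomatic, TopHat2 2.1.1, Bowtie2 2.2.9, Cufflinks 2.2.1, Cuffdiff and DESeq2 were used with GRCm38 (mm10); which counter was used was not given in the sources used here. Titles set the replicate numbers of the PBS libraries, whose column names number them otherwise. The 6 per-sample files hold the same counts as the series table.

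Genes were filtered with filterByExpr, scaled by TMM over listed genes and tested with edgeR 4.0.16 (robust quasi-likelihood, two-sided, Benjamini-Hochberg at 0.05) with group as the sole term. The SE is the log2 fold change over the root of F. A count of 3 equals 0.0812 to 0.112 CPM, for counting error only. Alternatives were DESeq2 1.42.0 (size factors, Wald test), limma 3.58.1 (voom), library size only, other count filters, no robust option, a replicate block and leaving out each library. Code was tested on simulated data. Replicates differed beyond sampling noise (chi-square per degree of freedom 43.6 to 126).

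Members, lists and motifs were chosen with earlier results of these data known. The genes named are the members, other Ms4a and CD20-like genes, Tnfrsf18, neighbours, the 5 most alike genes for Ms4a4b, Ms4a6b and Ms4a7 and listed markers. Sequences are from RefSeq (GRCm38.p6) and gene models from GENCODE M21. RefSeq promoter windows matched 5 of the 6 members, and Ms4a6d is shown by name only.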

Additional observations from a re-analysis of the deposited data

Results flagged for a closer look

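Ms4a4a stood apart in IL-10/Fc replicate 3, at 136 CPM where the other 3 libraries of that group lay at 75.0 to 84.2 CPM, and this gap was 0.851 of the group's range. IL-10/Fc replicate 3 also had the highest Ms4a6d and MHC class II sum. The summed neutrophil markers stood apart in IL-10/Fc replicate 4, at 6.87 CPM against 4.05 to 4.18 CPM in the other 3, a gap of 0.953 of the range. These levels are low. S100a8 stood at 1.40 CPM there against 0 in the other 3, and Csf3r at 1.28 CPM against 0 to 1.04 CPM. Ly6g did not stand apart, at 4.05 CPM against 4.12, 3.84 and 1.84 CPM. IL-10/Fc replicate 4 also had the highest Ms4a7. In 25 such sets of 4 libraries, chance alone marks about 1 in 20.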

How the results depend on the processing

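All 6 members kept a positive log2 fold change in every setting that held them. The number of members called higher, 0 with edgeR, was 6 with the DESeq2 Wald test and 2 (Ms4a6b and Ms4a4b) with at least 20 CPM in 2 libraries, a filter that removes Ms4a7; it was 0 in the other settings, limma-voom included. Over all genes 1 was called higher and 0 lower by edgeR (1970 at an unadjusted p under 0.05); these were 515 and 235 with the DESeq2 Wald test and 44 and 16 with at least 20 CPM in 2 libraries. None was called higher with library size only, without the robust option or with the replicate block. Leaving out single libraries gave 0 to 12 higher and 0 to 4 lower. The ratio of Ms4a7 to Ms4a4b and Ms4a6b ran from 3.32 to 15.1 without single libraries and was 5.76 with Ms4a4b alone as the denominator. The cause was not tested.

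Scaling by library size only moved the median of all genes to -0.18 and of the members to 0.94. Ms4a8a turned to -0.18 there, -1.21 with the block, -0.45 without IL-10/Fc replicate 3 and -0.43 without IL-10/Fc replicate 4, and ran from -0.92 to 3.25 over all single omissions. Tmem176b turned to -0.54 with the block, and Ms4a4a ran from -0.52 to 0.12 (without PBS replicate 2). Libraries with the same number in their titles deviated together at correlations of 0.06 and 0.01 across genes. With 2 PBS libraries the deviations mirror each other, so this check cannot show whether same-numbered libraries share more than a number. With the replicate block the members' median was 1.10 and each adjusted p 0.612 (edgeR). With 1 PBS library left, its spread is taken from the IL-10/Fc libraries. Low counts limit Ms4a7 in PBS.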
